A study of Homo sapiens with 6 samples.

Results

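Heterotrimeric G proteins relay signals from cell surface receptors to the inside of the cell. Each consists of an alpha subunit, which binds GTP, and a paired beta and gamma subunit. When an agonist occupies the receptor, the alpha subunit exchanges GDP for GTP and the alpha subunit and the beta-gamma pair act on effectors. The alpha subunits fall into classes by effector: the Gq class switches on phospholipase C beta and so calcium release, Gs and Gi raise and lower cyclic AMP, and G12 and G13 act through guanine nucleotide exchange factors on the cytoskeleton. In glioma cells such receptors respond to bradykinin, thrombin, lysophosphatidic acid and nucleotides.

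The genes described here are 10 G protein subunits, 8 alpha (GNAQ, GNA11, GNA12, GNA13, GNAI1, GNAI2, GNAI3 and GNAS) and 2 beta (GNB1 and GNB2), out of 18417 genes named by the array. GNAQ was chosen by its low values after the microRNA in these same arrays, and the remaining members as its relatives. The contrast between microRNA and control therefore describes the members and is not tested for them. Each gene was read from the probe set annotated to it alone, and where there were several, from the brightest over the 6 arrays. All 10 genes had such a probe set and all lay above the filter on low values, in their lowest array as well as in the mean.

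RNA came from A172, T98G and U87MG, established lines derived from human glioblastoma and grown in serum. Cells of each line received either pre-miR338-5p, a precursor of that microRNA (mimic), or a negative control (control), and 1 array per line and treatment was made 24 hours later, so that each group has 3 arrays. The labels do not say whether an array stands for 1 culture or a pool, and no untransfected array was analysed here. The study asked which transcripts this microRNA targets. RNA was taken from whole cultures, in which fewer cells carrying a transcript and less transcript per cell cannot be told apart. The number of arrays limits the precision.

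A microRNA guides the silencing complex to messenger RNAs that pair with its seed, bases 2 to 8 from the 5′ end. The mature sequence of the microRNA that was raised is shown with that of the opposite arm of the same hairpin, to show what a site for it would have to match. The seed is in capitals.
hsa-miR-338-5p: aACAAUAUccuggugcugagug
hsa-miR-338-3p: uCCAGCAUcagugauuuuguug
Sequences and positions are from RefSeq (GRCh38.p14), with the first at chr17:81125923-81125944 and the second at chr17:81125887-81125908, both on the minus strand. The DNA letters that pair with the seed of miR-338-5p are ATATTGT. Of 2370 mature human microRNAs in the RefSeq table, 1 carried this seed, miR-338-5p itself. Transcripts of the G protein genes were not searched for the match here.

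The lines were checked against markers of glial and other cell types. Of 12 glial markers 9 lay above the filter minimum of 4.28 in their mean. VIM and CD44, of mesenchymal-like glioma cells, were high (11.88 to 12.65 and 11.48 to 11.90), while the astrocyte protein GFAP stood at 5.07 to 5.39, and S100B, AQP4 and FABP7 lay below the minimum. ALDH1L1, OLIG2 and SOX2 cleared it narrowly, with means of 4.60, 4.49 and 4.35. SOX2 lay below it in the T98G control and the U87MG mimic array, and OLIG2 in the U87MG mimic array. SLC1A3 read 3.85 and 3.95 in A172, below the minimum, 6.25 and 6.09 in T98G, and 8.02 and 7.89 in U87MG. NES read 7.29 and 7.15 in A172 and 5.16 to 5.51 in the other lines. SOX9 stood at 6.54 to 7.36. Of markers of other cell types, 2 of 6 leukocyte, 1 of 4 endothelial, 4 of 5 epithelial and 5 of 6 neuronal genes lay above it, among them the keratin gene KRT8 at 10.41 and 10.49 in A172. Of the 33 markers 21 were tested, and 0 passed limma's threshold between mimic and control (1 at an unadjusted p under 0.05).

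GNAQ, the alpha subunit of Gq, stood out from its family after the mimic. In the controls its log2 level was 9.94 for A172, 9.21 for T98G and 9.49 for U87MG. With the mimic the levels were 8.53, 7.91 and 8.33 in the same order. All 3 mimic arrays lay below all 3 control arrays. The change was -1.41 in A172, -1.31 in T98G and -1.16 in U87MG, with a mean of -1.29 ± 0.13 (SD, n = 3), which is 2.45-fold lower, or 40.8% of the control level. Remaining GNAQ was thus 37.6% of control in A172, 40.4% in T98G and 44.8% in U87MG. By mean change it ranked 10th from the lowest of 13813 tested genes, and 6th in A172, 13th in T98G and 17th in U87MG.

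GNA11 encodes the alpha subunit closest to that of GNAQ, which couples to the same receptors and the same phospholipases. Its controls of A172, T98G and U87MG stood at 9.39, 8.46 and 8.54, and its mimic arrays at 9.31, 8.31 and 8.63. The arrays of the groups overlapped, and the change had no common sign: -0.08 in A172, -0.14 in T98G and 0.09 in U87MG (mean -0.04 ± 0.12). The change of GNAQ less that of GNA11 was -1.33 in A172, -1.16 in T98G and -1.25 in U87MG, with a mean of -1.25 ± 0.08 (SD, n = 3). The gap between the relatives was thus about as large as the change of GNAQ itself. By these probe sets it varied less over the lines than either change (SD 0.13 and 0.12). By the second probe sets of both genes, described below, the gap varied more over the lines than either change.

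**Figure D1:**
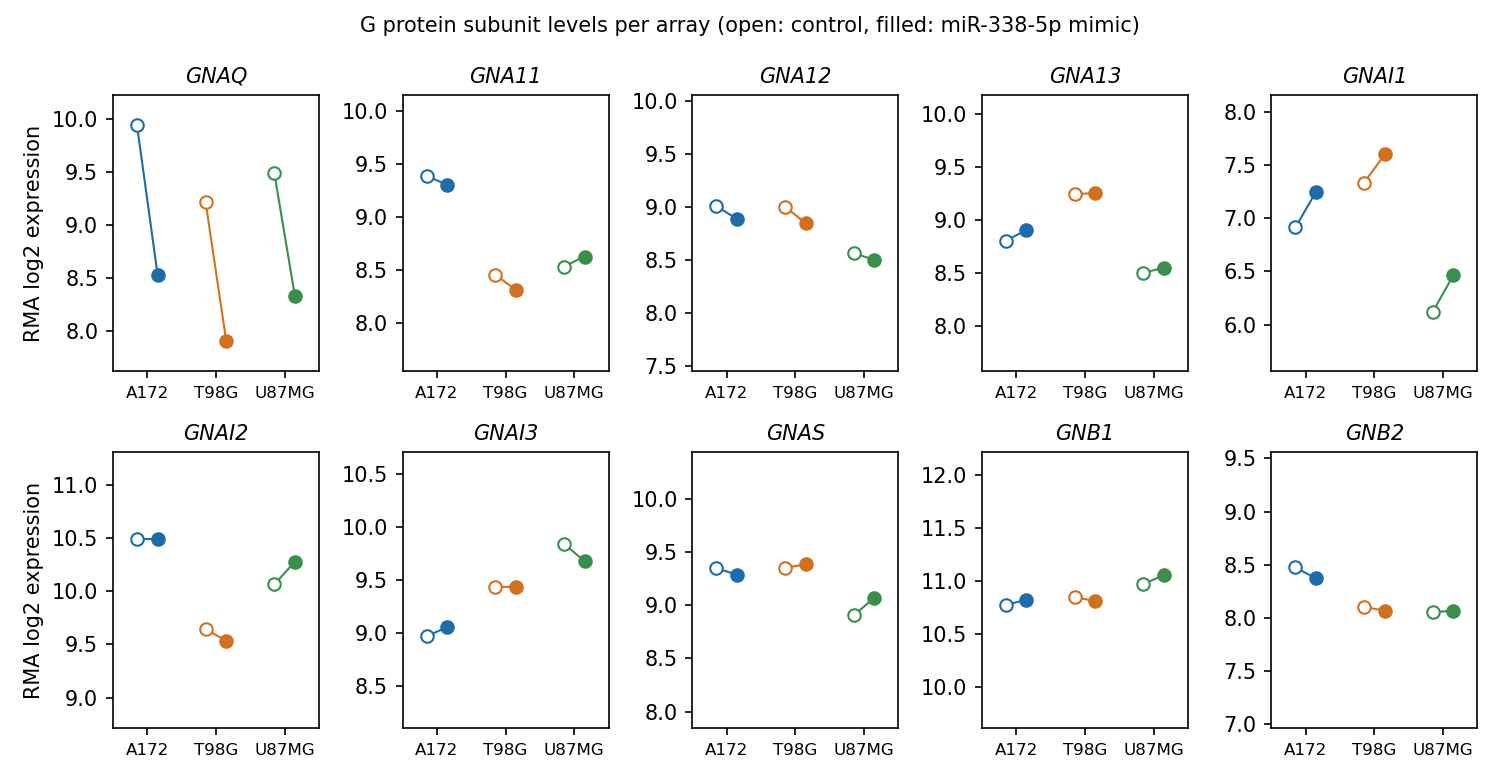
RMA log2 expression of 10 G protein subunit genes per array, by line (x axis), with the control as an open and the mimic as a filled point joined by a line; every panel spans the same number of log2 units but has its own range, since probe sets of different genes are not on a common level. GNAQ drops in each line, from 9.94 to 8.53 in A172, while the joined points of GNA11 and the beta subunits are nearly level.

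A second probe set was available for 3 of the genes, and it was not used in the values above. That of GNAQ read 9.23, 8.36 and 8.83 in the controls of A172, T98G and U87MG and 8.04, 7.32 and 7.63 with the mimic. Its changes were -1.19, -1.03 and -1.20, with a mean of -1.14 ± 0.09, against -1.29 for the first probe set. The second probe set of GNA11 changed by 0.13, -0.12 and 0.26 (mean 0.09 ± 0.19). For GNA11 the mean thus had the opposite sign to that of the first probe set, with both means inside the spread over the lines. The second probe set of GNAI2 gave 0.04 ± 0.20. Probe sets of a gene share the RNA and the array, so they check the reading of the probes and not the biology.

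GNA12 and GNA13 encode the alpha subunits that act on the cytoskeleton. GNA12 stood at 9.01, 9.00 and 8.56 in the controls of A172, T98G and U87MG and at 8.89, 8.85 and 8.50 with the mimic, a change of -0.12, -0.16 and -0.06 (mean -0.11 ± 0.05). GNA13 stood at 8.81, 9.25 and 8.51 in the controls and at 8.91, 9.25 and 8.55 with the mimic, a change of 0.10, 0.0065 and 0.045 (mean 0.05 ± 0.05). Each had the same sign in the 3 lines, at a size of at most 0.16, and in both genes the groups overlapped.

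Among the alpha subunits that inhibit adenylyl cyclase, GNAI1 was higher with the mimic. The controls of A172, T98G and U87MG read 6.92, 7.34 and 6.12, and the mimic arrays 7.25, 7.60 and 6.47. The mimic array was the higher in each line, although the groups overlapped because the lines lie far apart. The change was 0.34, 0.27 and 0.34 (mean 0.32 ± 0.04, SD, n = 3), which is 1.24-fold, and 97.9% of tested genes had a lower mean change. It was the second largest change in size of the 10 genes, though far smaller than that of GNAQ.

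GNAI2 changed by -0.00095 in A172, -0.11 in T98G and 0.21 in U87MG (mean 0.03 ± 0.17), and GNAI3 by 0.09, 0.0023 and -0.17 (mean -0.03 ± 0.13). These relatives of GNAI1 thus had opposite signs in U87MG, and neither mean exceeded its spread. The change of GNAI1 less that of GNAI2 was 0.28 ± 0.13, and less that of GNAI3 0.34 ± 0.15. In each pair the change of GNAI1, not its level, was the higher in each line.

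GNAS encodes the alpha subunit that stimulates adenylyl cyclase. It stood between 8.91 and 9.36 in the controls and between 9.07 and 9.39 with the mimic, with changes of -0.06, 0.03 and 0.17 in A172, T98G and U87MG (mean 0.05 ± 0.11). The beta subunits pair with alpha subunits of every class. GNB1 stood between 10.78 and 10.97 in the controls and changed by 0.05, -0.04 and 0.08 (mean 0.03 ± 0.06). GNB2 stood between 8.05 and 8.47 in the controls and changed by -0.10, -0.04 and 0.02 (mean -0.04 ± 0.06).

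**Figure D2:**
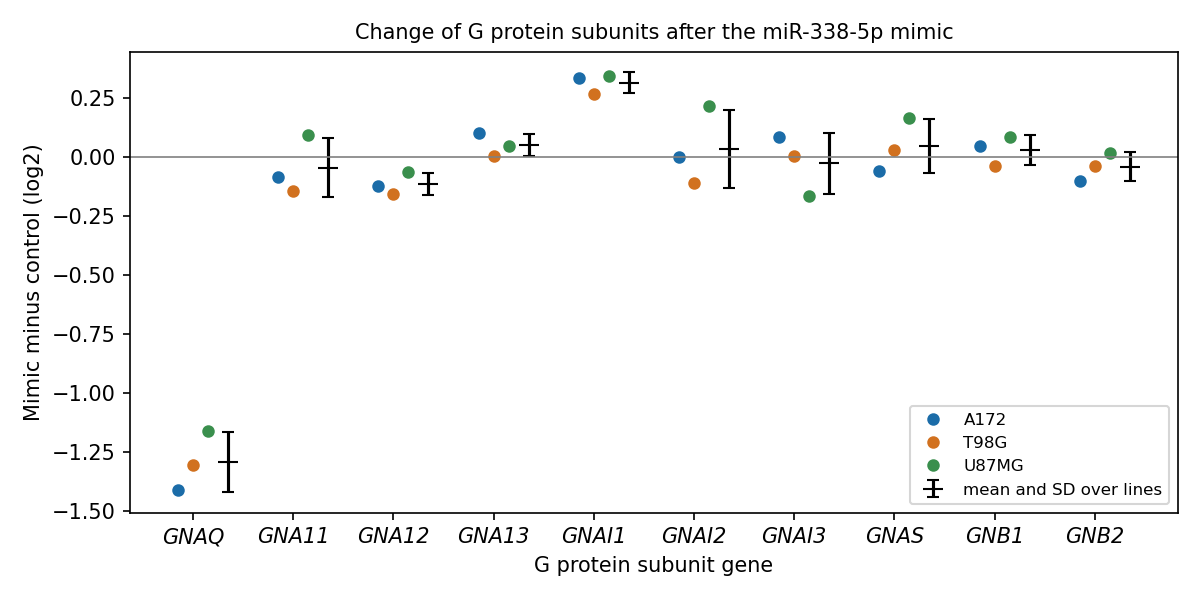
Mimic minus control on the log2 scale (y axis) for each G protein subunit gene (x axis), with a coloured point per line and the black mark giving the mean with its SD over the 3 lines. GNAQ lies between -1.41 and -1.16, GNAI1 between 0.27 and 0.34, and every other point within 0.22 of 0.

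Over the 10 genes the median of the mean changes was 0.0020, beside 0.0068 over all tested genes; without GNAQ it was 0.03. GNAQ alone of the 10 passed limma's threshold (Benjamini-Hochberg adjusted p under 0.05, paired by line). It was chosen by its low values in this contrast, so its calls and its lack of overlap describe it and are no test. Over all genes 153 of 13813 passed, or 1.11%, of which 109 were lower (0.789%) and 44 higher (0.319%); since the members were chosen with this contrast known, nothing is read from the comparison. The same sign in the 3 lines was seen for 4 of the 10 (GNAQ, GNA12, GNA13 and GNAI1), against 34.3% of all tested genes. Groups without overlap were seen for GNAQ only among the 10, against 2.96% of all tested genes. GNAQ did not pass without the U87MG arrays, nor without the line in the model, settings in which 0 genes passed over the whole array (1339 and 127 at an unadjusted p under 0.05). With the lower 50% of genes left out, GNAI1 passed as well. The sign of the mean turned without U87MG for GNAI2 (-0.056), GNAI3 (0.044) and GNAS (-0.015), and without T98G for GNA11 (0.0054).

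The levels of the subunits were then compared between the lines, a contrast that did not serve to choose them. A line mean here is the mean of its control and its mimic array. In limma's F test over the lines, with the transfection as an additive term and 2 arrays per line, 9 of 10 genes passed at an adjusted p under 0.05. The share over all tested genes was 67.5%, so differences between these lines were the rule. With the lower 50% of genes by mean left out, the share was 82.4%, and 9 of the 10 passed there too. The range of the line means had a median of 0.70 over the 10 genes and 0.54 over all tested genes. By pair of lines, 7 of the 10 passed between T98G and A172 (50.5% of all genes), 9 between U87MG and A172 (54.2%) and 7 between U87MG and T98G (47.1%).

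GNAI1 differed most between the lines. Its mean over the 2 arrays of a line was 7.47 in T98G, 7.08 in A172 and 6.29 in U87MG, so that U87MG lay 1.18 below T98G, a 2.26-fold difference (limma adjusted p = 7.4e-05), and 0.79 below A172 (adjusted p = 0.00040). T98G lay 0.39 above A172 (adjusted p = 0.0101). GNAI3 was highest in U87MG at 9.76, then T98G at 9.44 and A172 at 9.01, and all 3 pairs passed (largest limma adjusted p 0.0349). GNAI2 was highest in A172 at 10.49, then U87MG at 10.17 and T98G at 9.59, and all 3 pairs passed here too (largest limma adjusted p 0.0429). By these probe sets each line held the top level of a different Gi alpha gene. The second probe set of GNAI2 did not keep A172 at the top in both groups. It read 6.53 in A172 and 6.48 in U87MG in the controls, but 6.63 and 6.68 with the mimic, with T98G lowest in each group.

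The Gq pair shared its order. GNAQ was highest in A172, then in U87MG and T98G, in the controls and with the mimic alike. T98G lay 0.68 below A172 (1.60-fold, limma adjusted p = 0.00146), U87MG 0.33 below A172 (adjusted p = 0.0289) and 0.35 above T98G (adjusted p = 0.0265). GNA11 was highest in A172 at 9.35, with T98G 0.96 lower (1.95-fold, limma adjusted p = 0.000308) and U87MG 0.76 lower (adjusted p = 0.000798). U87MG and T98G, at 8.58 and 8.39, were not separated (adjusted p = 0.153). The second probe sets of GNAQ and GNA11 gave the same order of the lines in each group. The F test of GNAQ depended on the term for the transfection, and without it the adjusted p was 0.603, since the mimic then counts as spread within a line.

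GNA13 was highest in T98G at 9.25, then in A172 at 8.86 and U87MG at 8.53, and all 3 pairs passed (largest limma adjusted p 0.0186). GNA12 stood at 8.95 in A172 and 8.92 in T98G, which were not separated (limma adjusted p = 0.859), and at 8.53 in U87MG, which was lower than both (adjusted p = 0.00716 and 0.0105). Both genes of this class were thus lowest in U87MG. GNAS had a like pattern, with 9.37 in T98G and 9.32 in A172 (limma adjusted p = 0.701) and 8.99 in U87MG (adjusted p = 0.0172 and 0.0258).

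The beta subunits had the smallest ranges of line means among the 10, 0.21 for GNB1 and 0.36 for GNB2. GNB2 was highest in A172 at 8.42, against 8.08 in T98G (limma adjusted p = 0.0188) and 8.06 in U87MG (adjusted p = 0.0134), and the latter lines were not separated (adjusted p = 0.844). GNB1, at 10.80 in A172, 10.83 in T98G and 11.01 in U87MG, was the gene that did not pass (F test of limma, adjusted p = 0.131). It did pass with a variance prior that follows expression (adjusted p = 0.0102). Leaving out single arrays ended 3 of the calls: GNB2 without the A172 control (limma F test, adjusted p = 0.166) or the A172 mimic array (0.0702), and GNA12 (0.0825) and GNAS (0.189) without the U87MG control.

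**Figure D3:**
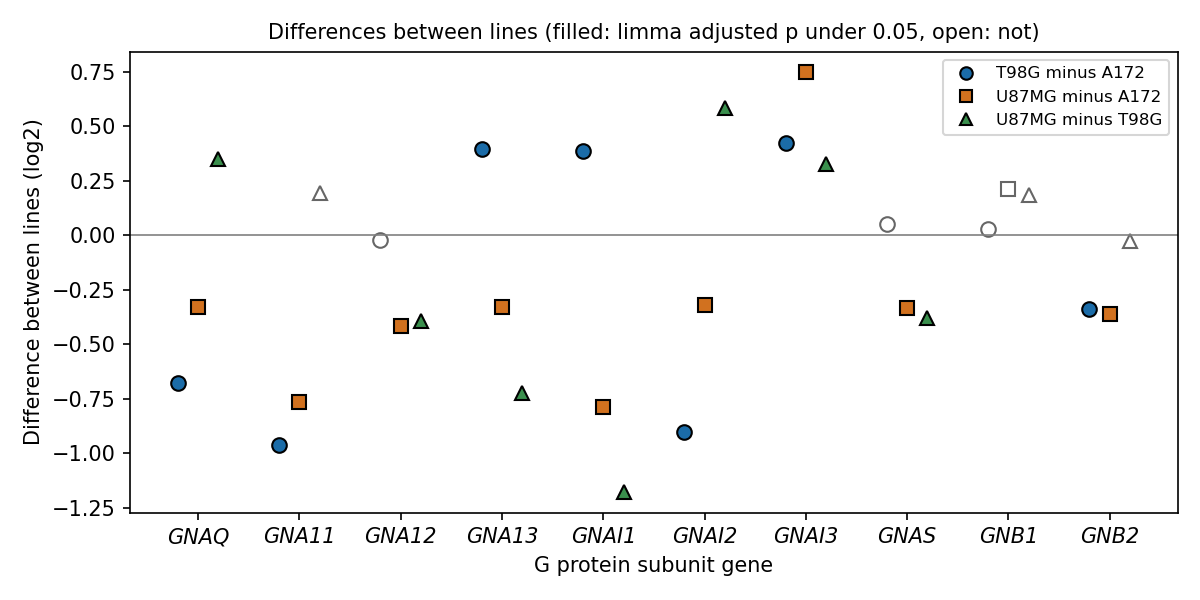
Differences between pairs of lines on the log2 scale (y axis) for each G protein subunit gene (x axis), from the fit with the transfection as an additive term; circles show T98G minus A172, squares U87MG minus A172 and triangles U87MG minus T98G, filled where limma's adjusted p was under 0.05. GNAI1 has the widest gap, -1.18 for U87MG minus T98G, and all 3 points of GNB1 are open.

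The genes whose values over the 6 arrays ran most like those of GNAQ were sought among the 4703 other tested genes with an SD of at least 50% of that of GNAQ (0.77). The highest Pearson correlations were those of NDFIP1, an adaptor of ubiquitin ligases (r = 0.986), FBXO3, a subunit of a ubiquitin ligase (0.986), MICB, a ligand of an activating receptor of natural killer cells (0.985), RAB1A, a GTPase of vesicle transport (0.954), and ATAD1, an ATPase of the mitochondrial outer membrane (0.944). These describe 6 arrays that share 3 lines and 2 treatments. NDFIP1 stood at 8.03, 7.72 and 7.87 in the controls of A172, T98G and U87MG and at 7.06, 6.77 and 6.92 with the mimic, the same order of all 6 arrays as in GNAQ. FBXO3 changed by -0.72, -0.62 and -0.48, which like GNAQ was largest in A172 and smallest in U87MG. MICB changed by -0.82 ± 0.04, RAB1A by -1.73 ± 0.16 and ATAD1 by -1.43 ± 0.32.

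Further genes of G protein signalling were taken from 11 lists that hold 173 genes, of which 161 were named on the array and 127 lay above the filter. None of the 127 passed between mimic and control in limma's paired fit over all genes, beside 1.11% of all tested genes. At an unadjusted p under 0.05 there were 8 of 127, beside 1635 of 13813 over all tested genes. Their median change was 0.0032, beside 0.0068 over all tested genes. Of these genes 67 were positive and 60 negative (47.2% negative, beside 47.6% of all tested genes). Of the list genes, GNB4 and GRK5 passed under some alternative settings.

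Of the other alpha subunits, 5 of 7 named genes lay above the filter, and 0 passed (median -0.03, against 0.0068 over all tested genes). GNA14 and GNA15 complete the Gq class with GNAQ and GNA11. GNA14 was read at 3.44 to 3.71, below the filter, and GNA15 at 4.63 to 5.35, with a mean change of -0.05. GNAL, which takes the place of GNAS in olfactory neurons and striatum, had the largest change in size of the list at -0.29 ± 0.42, with -0.76 in U87MG and 0.05 in T98G (limma adjusted p = 0.522). GNAZ, a member of the Gi class, changed by 0.08 ± 0.03 (adjusted p = 0.735). GNA14 and GNA15 were named here for their class, outside the rule for naming genes.

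GNB4, a further beta subunit, had the largest change of the 127. It stood at 8.57, 8.09 and 8.16 in the controls of A172, T98G and U87MG and at 7.68, 7.75 and 7.56 with the mimic. All mimic arrays lay below all controls, and 2.96% of all tested genes had groups without overlap in either direction. The change was -0.90, -0.35 and -0.60 (mean -0.62 ± 0.28, SD, n = 3), and it did not pass (limma adjusted p = 0.0734). It did pass with the lower 50% of genes left out (0.0175), with arrays centred on their medians (0.0169), with the variance prior that follows expression (0.00357) and without T98G (0.0363). Under the other settings it did not, among them no filter (limma adjusted p = 0.138), without A172 (0.194) and without U87MG (0.317). Of the rest of its list, GNB3 changed by 0.15 ± 0.13 (limma adjusted p = 0.558), and the 3 genes had a median of 0.06. The 8 gamma subunits above the filter had a median of 0.03 and 0 passed, with GNG8 at 0.13 ± 0.16 and GNG7 at 0.10 ± 0.23 (limma adjusted p = 0.636 and 0.756).

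Proteins that fold, load or switch off the subunits showed small changes. Of 10 chaperones and GoLoco regulators, 8 were positive and 0 passed (median 0.02). Negative changes made up 20% of this list, beside 47.6% of all tested genes. Only 30% of the list had the same sign in the 3 lines, beside 34.3% of all tested genes. GPSM2, which binds Gi alpha at the cell cortex during spindle orientation, changed by 0.13, 0.23 and 0.21 (mean 0.19 ± 0.05, limma adjusted p = 0.37), and PDCL, a cochaperone of beta subunit folding, by -0.15 ± 0.04 (adjusted p = 0.489). RGS proteins speed the hydrolysis of GTP by alpha subunits. Of 14 above the filter 10 were negative (71.4%, beside 47.6% of all tested genes) and 0 passed (median -0.06). The same sign in the 3 lines was seen for 21.4% of the 14, beside 34.3% of all tested genes. RGS7 changed by -0.28 ± 0.28 and RGS16 by 0.16 ± 0.38 (limma adjusted p = 0.405 and 0.712). In T98G RGS7 lay below the filter minimum in both arrays, at 3.84 and 3.26, and this line gave its largest change.

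Of 17 effectors of Gq above the filter 0 passed (median 0.01). PLCB4, a phospholipase C beta, changed by -0.66 in A172, -0.14 in T98G and 0.10 in U87MG (mean -0.23 ± 0.39, limma adjusted p = 0.592), and RASGRP3, an exchange factor that responds to diacylglycerol, by -0.38, 0.0061 and -0.11 (mean -0.16 ± 0.20, adjusted p = 0.578). RASGRP3 lay below the filter minimum in T98G (3.30 in both arrays) and in U87MG (2.41 and 2.31). Of 7 genes that act below G12 and G13 0 passed (median 0.03).

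Of 22 genes of cyclic AMP signalling 11 were positive, 11 negative (50%, beside 47.6% of all tested genes) and 0 passed (median -0.0013). ADCY8, an adenylyl cyclase, changed by -0.24 ± 0.54, with opposite signs in T98G and U87MG, and RAPGEF3, an exchange factor activated by cyclic AMP, by 0.19 ± 0.28 (limma adjusted p = 0.684 and 0.591). ADCY8 lay below the filter minimum in A172 (4.02 and 3.59) and in T98G (3.69 and 4.06). Of 23 receptors that couple to Gq 0 passed (median 0.0083). P2RY6, a nucleotide receptor, changed by -0.49, -0.34 and -0.11 (mean -0.31 ± 0.19, limma adjusted p = 0.251), and BDKRB1, a bradykinin receptor, by -0.20, -0.27 and -0.19 (mean -0.22 ± 0.05, adjusted p = 0.294). BDKRB1 in T98G lay below the filter minimum, at 3.93 and 3.65.

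Receptor kinases and arrestins end the signal at the receptor, and of 5 above the filter 0 passed (median -0.05). GRK5, a receptor kinase, stood at 6.42, 6.76 and 6.53 in the controls of A172, T98G and U87MG and at 6.95, 7.01 and 7.10 with the mimic. All mimic arrays lay above all controls, beside 2.96% of all tested genes with groups that did not overlap in either direction. Its change was 0.53, 0.24 and 0.57 (mean 0.45 ± 0.18, limma adjusted p = 0.102), and it passed with the lower 50% of genes left out (0.0275) and with the prior that follows expression (0.0230). It did not pass under the other settings. With the mean over its probe sets in place of the brightest, the change of GRK5 was 0.24 (limma adjusted p = 0.386). GRK3 changed by -0.16 ± 0.15 (limma adjusted p = 0.521). Of 13 genes known to respond to calcium, serum response factor or YAP, which lie downstream of Gq and G12, 0 passed (median 0.04). EGR1, an immediate early transcription factor, changed by 0.17, 0.29 and 0.46 (mean 0.31 ± 0.15, limma adjusted p = 0.203), and ATF3, a stress-induced factor, by -0.14 ± 0.27 (adjusted p = 0.695).

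**Figure D4:**
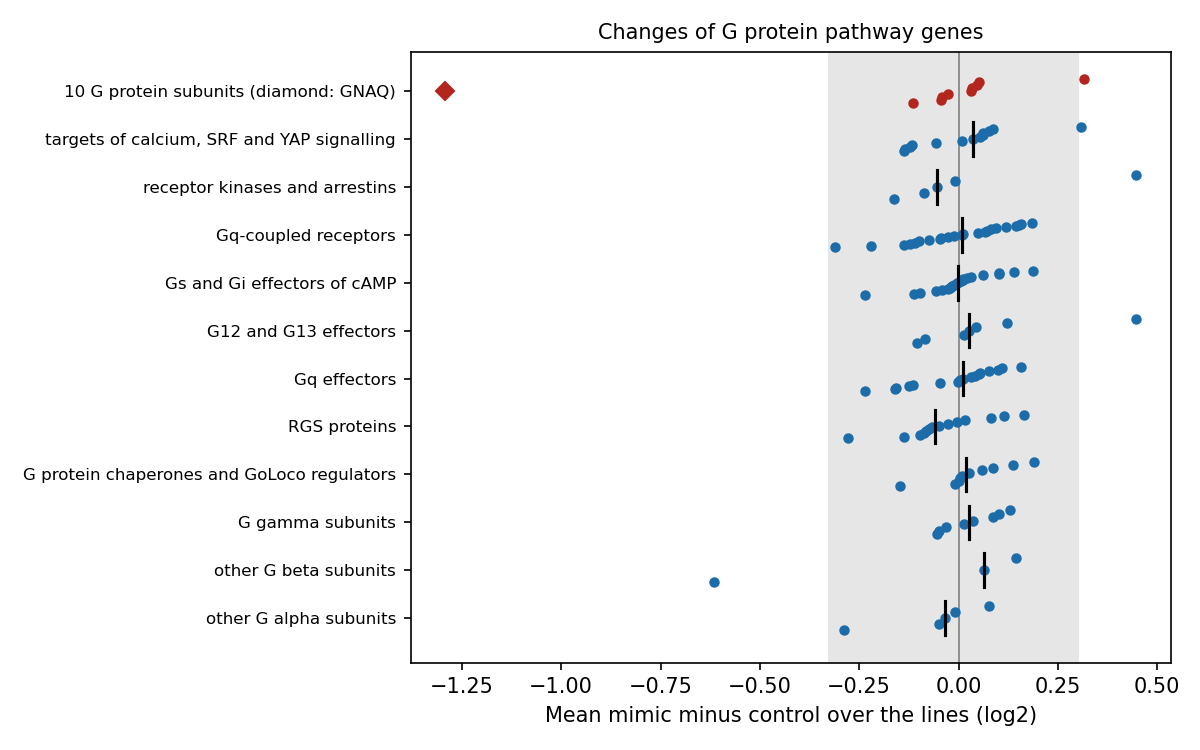
Mean change over the 3 lines, mimic minus control on the log2 scale (x axis), of each measured gene of 11 lists of G protein signalling (rows), with a vertical bar at each list's median and, in the top row, the 10 subunits with GNAQ as a diamond. The grey band spans the central 95% of all 13813 tested genes, -0.33 to 0.30; GNAQ at -1.29 lies far to its left, and GNB4 at -0.62 is the lowest point of the lists.

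The pathway genes were last compared between the lines. Of the 127, 98 passed the F test over the lines, or 77.2%, beside 67.5% of all tested genes. Both shares hold genes that passed the filter only through a line in which they are high and so had to differ. They are given as a description, and no p is given for such genes. RASGRP3 stood at 8.45 and 8.07 in A172, against 3.30 in both T98G arrays and 2.41 and 2.31 in U87MG, which lie below the filter minimum. PLCB4, above the minimum on every array, went from 8.32 and 7.66 in A172 to 6.92 and 6.78 in T98G and 5.53 and 5.63 in U87MG (limma F test, adjusted p = 0.000102). BDKRB1 stood at 10.80 and 10.60 in U87MG and 9.04 and 8.84 in A172, and below the minimum in T98G. ADCY8 stood at 7.66 and 7.01 in U87MG and between 3.59 and 4.06 in the other lines, below the filter minimum.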

How the data were processed

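The authors deposited log2 expression values of 33297 probe sets on 6 Affymetrix Human Gene 1.0 ST arrays. Per the submitters' processing notes these came from RMA with oligo in R 3.0.1, which sets the arrays to a common distribution, so that a shift of most genes would be largely removed; no source used here gives filters or batches. Array medians lay between 5.06 and 5.14. Probe sets with 1 symbol in the platform annotation (19460; 19429 matched by identifier to RefSeq) named 18417 genes. The lowest 25% by mean were left out, leaving 13813. Mimic and control were compared with limma 3.58.1 in R 4.3.3 with the line as a block, and lines with the group as an additive term, both two-sided with Benjamini-Hochberg adjustment over all tested genes. Deviations from the group means correlated within a line with r of 0.951 to 0.958, so the lines pair the arrays. P-values measure the spread between these arrays, with 2 residual degrees of freedom (6.56 with limma's variance prior pooled over all genes). With 1 array per line and treatment, this spread is how far the change differs between the lines. It is not a spread between repeat cultures of a line. The fits were tested on simulated data. Members and lists were chosen with earlier results of these data known. Named genes are the members, called list genes, the 2 list genes of largest change, the 5 genes most like GNAQ and the glial markers; KRT8, GNA14 and GNA15 were added after their values were seen, and 1 list gene is not reported here. Alternatives changed the filter, the probe set, the scaling, the variance prior, the model and the arrays used; those that left out single arrays in the line comparison were chosen after seeing the data.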

Additional observations from a re-analysis of the deposited data

How the results depend on the processing

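The number of genes past limma's threshold between mimic and control was 153 of 13813 tested. It was 60 of 18417 with no filter and 360 of 9209 with the lower 50% of genes left out. It was 236 with arrays centred on their medians, 471 with an expression-dependent variance prior, and 0 with no replicate block (the unpaired fit). When a line was left out it ranged from 0 (without U87MG) to 117 (without T98G), with 64 without A172. A fit with 1 line fewer has fewer residual degrees of freedom. Of the pathway genes 0 passed, and 2 did with the lower 50% left out or the expression-dependent prior (GNB4 and GRK5 each time), 1 with centred arrays, and 0 to 2 when a line was left out. Without A172 the change of GNG7 was -0.028 and without T98G that of RGS16 was -0.021, each opposite in sign to the full fit. The change of GNAQ less that of GNA11 lay between -1.29 and -1.21 over its alternatives. The lowest likeness to GNAQ among the 5 genes was 0.943 by Spearman's rank correlation, a value that 9 genes reach. Counts of subunits called between lines lay between 7 and 10. Those of pathway genes lay between 73 (of 82 tested, with the lower 50% left out) and 106 (of 161 tested, with no filter). The lower count is thus the higher share.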
